A study of Mus musculus with 12 samples.

Results

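The 9 genes described here encode the carriers and pumps that move drugs, bile acids and other organic anions across the hepatocyte membrane, and they were chosen by name out of the 32285 genes counted in single-nucleus RNA sequencing (snRNAseq) of mouse liver. The 5 uptake carriers were *Slco1b2*, *Slco1a1*, *Slco1a4*, *Slco2b1* and *Slc22a7*. The 4 efflux transporters were *Abcc3*, *Abcc4*, *Abcb1a* and *Abcg2*. All 9 genes were detected in hepatocyte nuclei, passed the filter on low counts and were tested in every comparison.

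The sinusoidal membrane of the hepatocyte faces the blood and carries organic anion transporting polypeptides (OATPs, *Slco* genes) and organic anion transporters (*Slc22* genes), which take up drugs, bilirubin conjugates, bile acids and hormones. Efflux runs in both directions: ABC transporters of the canalicular membrane, among them P-glycoprotein (*Abcb1a*) and BCRP (*Abcg2*), pump into bile, while MRP3 (*Abcc3*) and MRP4 (*Abcc4*) pump conjugates and bile acids back into blood. Uptake is known to limit the clearance of many drugs, and cultured hepatocytes are widely used to measure it. Transcription of these genes is known to respond to nuclear receptors such as CAR, PXR, FXR and PPARα, to HNF4α and to Nrf2.

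Nuclei came from 3 sample types of the same 8 wild-type male mice, which the sample labels give as C57BL6J and the study's methods as C57BL/6NTac, 10 to 12 weeks old. Liver (L) was a piece of liver tissue taken after the calcium-chelating perfusion and before collagenase. Cell Suspension (CS) held the cells freed by collagenase, strained and enriched for hepatocytes by low-speed centrifugation. Primary Hepatocytes (PH) were those cells after 24 hours on collagen in medium with 1 µM dexamethasone, 1 nM insulin and 0.5% fetal bovine serum, lifted with trypsin. All 3 sample types had thus passed through perfusion, and PH had passed through isolation too, so culture cannot be told apart from plating, medium, dexamethasone and trypsin.

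The authors' table assigned 53467 nuclei to the 24 mouse samples by hashtag antibodies, 20024 from L, 15049 from CS and 18394 from PH. Hepatocyte nuclei numbered 15166, 13339 and 16283, and their summed unique molecular identifiers (UMIs) per mouse sample ranged from 6872031 to 29023569 in L, from 2104087 to 17452582 in CS and from 9852007 to 21226254 in PH. The summed level of 10 hepatocyte marker genes in hepatocyte nuclei was 12315 to 17564 CPM (UMIs of a gene scaled to the same total in each sum) in L, 15685 to 21223 in CS and 2329 to 6759 in PH, and thus lower in every PH sample than in any L or CS sample. In PH this level overlapped with that of endothelial nuclei (1238 to 4755 CPM), so the hepatocyte markers alone did not separate these 2 cell types after culture. The mean level per endothelial marker was 649 CPM in the cultured endothelial cluster. In the 5 clusters of cultured hepatocytes it was 8.75 to 31.3 CPM. The cultured clusters were named by the marker list with the highest mean, so this separation was set by the naming. In the same hepatocyte sums the 10 endothelial markers went from a median of 46.6 CPM in L to 131 in PH, the 10 stellate markers from 43.5 to 194 and the 8 leukocyte markers from 22.3 (13.9 to 33.9) to 48.3 (35.4 to 56.2). The Kupffer markers had medians of 12.1 and 14.3 CPM. The 24 samples were run in 6 pools of 4, of which 2 held both L and PH, and 337 barcodes occurred in more than 1 pool (676 nuclei). In sums over nuclei, fewer nuclei with a transcript and less of it per nucleus cannot be told apart, so shares of nuclei are given as well.

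The genes *Slco1b2*, *Slco1a4* and *Slco1a1* lie in this order on chromosome 6 of GRCm38. *Slco1b2* is at chr6:141629518-141686646 on the plus strand. On the minus strand are *Slco1a4* at chr6:141805440-141856199 and *Slco1a1* at chr6:141907282-141946962. The other members lie elsewhere, *Slco2b1* at chr7:99657804-99711340, *Slc22a7* at chr17:46432183-46438457, *Abcc3* at chr11:94343295-94392997 and *Abcc4* at chr14:118482692-118706219 on the minus strand, and *Abcb1a* at chr5:8660077-8748575 and *Abcg2* at chr6:58584523-58695676 on the plus strand. The 250 bases before the RefSeq start are shown for *Slco1b2*, *Slco1a4* and *Slco1a1*. These genes lie in the same region and fell by different amounts in culture. The 250 bases before the *Abcc4* start are shown because this gene was the member that rose most in hepatocyte nuclei. The sequences are RefSeq promoter windows of GRCm38.p6, whose start for *Slco1a4* lies 21 bases upstream of the gene start given above. They are written 5′ to 3′ on the strand of the gene. Capitals mark matches on either strand to TGACNNNGC (antioxidant response element core), AGTTCA or AGGTCA (nuclear receptor half-sites).
Slco1b2, chr6:141629268-141629517, plus strand: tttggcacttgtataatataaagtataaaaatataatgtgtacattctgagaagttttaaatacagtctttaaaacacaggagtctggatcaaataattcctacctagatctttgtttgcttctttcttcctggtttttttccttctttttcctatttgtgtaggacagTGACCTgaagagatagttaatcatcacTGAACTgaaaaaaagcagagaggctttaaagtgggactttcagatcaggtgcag
Slco1a4, chr6:141856221-141856470, minus strand: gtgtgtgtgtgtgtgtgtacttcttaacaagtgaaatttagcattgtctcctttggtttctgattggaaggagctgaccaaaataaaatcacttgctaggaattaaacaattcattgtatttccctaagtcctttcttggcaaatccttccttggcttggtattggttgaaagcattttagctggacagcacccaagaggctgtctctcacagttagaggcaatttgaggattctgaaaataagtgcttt
Slco1a1, chr6:141946963-141947212, minus strand: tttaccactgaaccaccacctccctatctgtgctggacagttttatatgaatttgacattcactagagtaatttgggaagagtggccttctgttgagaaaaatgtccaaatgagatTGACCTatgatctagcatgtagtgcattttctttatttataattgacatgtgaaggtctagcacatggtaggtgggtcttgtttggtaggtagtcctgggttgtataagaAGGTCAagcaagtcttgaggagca
Abcc4, chr14:118706220-118706469, minus strand: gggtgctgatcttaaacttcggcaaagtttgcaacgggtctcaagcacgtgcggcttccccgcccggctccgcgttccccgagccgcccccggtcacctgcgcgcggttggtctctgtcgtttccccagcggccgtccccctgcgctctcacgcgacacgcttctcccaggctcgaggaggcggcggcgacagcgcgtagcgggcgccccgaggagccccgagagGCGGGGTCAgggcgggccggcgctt

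Letters of both nuclear receptor half-sites stood before the *Slco1b2* start, AGTTCA at 54 and AGGTCA at 81 bases from it, each on the opposite strand. The *Slco1a1* window held AGGTCA on each strand, 24 and 134 bases before the start, and none of the 3 motifs was found in the *Slco1a4* window. The window of *Abcc4* held TGACNNNGC on the opposite strand 25 bases before the start, and a second listed start of this gene held it at 23 bases on the gene's own strand. Of 32851 RefSeq windows of the same length, 10.2% held TGACNNNGC, 11.8% AGTTCA and 14% AGGTCA. Windows were listed for 7 of the 9 genes. Matches are descriptions of letters, and binding was not measured.

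In hepatocyte nuclei, 8 of the 9 genes differed between PH and L: all 5 uptake carriers and *Abcg2* fell, *Abcc4* and *Abcb1a* rose, and *Abcc3* did not pass the test (edgeR quasi-likelihood test on UMI sums of 8 against 8 mouse samples, Benjamini-Hochberg adjusted p below 0.05). Of all 26778 genes tested, 53.7% were called in this comparison, 27.4% higher and 26.3% lower. Against CS the same 8 genes were called in the same directions, beside 50.4% of all genes (26.9% higher and 23.5% lower). The median log2 fold change of the 9 genes was -2.80 in PH against L and -2.57 against CS, and that of all genes 0.10 and 0.02. Both comparisons share the PH samples. Without scaling between samples, 75.7% of the calls over all genes in PH against L were higher instead of 51%, and 80.2% instead of 53.4% against CS, while *Slco1b2* (-5.52), *Slco2b1* (-3.82), *Slco1a4* (-3.53), *Slc22a7* (-2.92), *Slco1a1* (-2.26), *Abcg2* (-0.90), *Abcc4* (2.39) and *Abcb1a* (1.31) kept their calls against L.

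*Slco1b2* encodes Oatp1b2, the liver-specific rodent counterpart of the human OATP1B carriers of statins and bilirubin. Its level in hepatocyte nuclei, in CPM scaled by trimmed mean of M-values (TMM), was 2199 at the lowest, 2738 at the median and 3226 at the highest in the 8 L samples. The CS samples lay at 1571, 2222 and 2985 CPM, and the PH samples at 22.2, 38 and 61.6 CPM. Every PH sample thus lay far below every L and CS sample, and L and CS overlapped. The log2 fold change was -6.09 ± 0.21 (SE) in PH against L, which is 68.3 times lower (adjusted p = 3.10e-20), and -5.81 ± 0.21 against CS (adjusted p = 7.01e-20).

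*Slco1a1* encodes Oatp1a1, a carrier of bile acids and sulfated steroids known to be higher in livers of male than of female mice. The L samples had 456, 693 and 802 CPM (lowest, median and highest), the CS samples 353, 514 and 745, and the PH samples 46.8, 92.6 and 147. The PH samples lay below all others, with a smaller gap than for *Slco1b2*. In PH the log2 fold change was -2.80 ± 0.21 against L (6.98 times lower, adjusted p = 8.00e-13) and -2.57 ± 0.21 against CS (adjusted p = 6.08e-12).

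*Slco1a4* encodes Oatp1a4, a carrier of cardiac glycosides also known from the blood-brain barrier. Its level was 53.7, 191 and 242 CPM in L, 46.1, 204 and 288 CPM in CS, and 6.69, 9.93 and 14.3 CPM in PH. The spread among mice was wide in L and CS and narrow in PH, and no PH sample reached the lowest L or CS sample. PH was 16.9 times lower than L on a log2 fold change of -4.08 ± 0.34 (adjusted p = 8.52e-12), and the log2 fold change against CS was -4.12 ± 0.34 (adjusted p = 9.29e-12).

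*Slco2b1* encodes Oatp2b1, a carrier with a wide tissue distribution. Its 8 L samples stood close together at 89.8, 102 and 119 CPM, as did the CS samples at 93.8, 111 and 140 CPM, and the PH samples were at 3, 4.83 and 6.67 CPM. No PH value came near the others. In PH it differed by a log2 fold change of -4.39 ± 0.15 against L (21 times lower, adjusted p = 1.31e-20) and -4.58 ± 0.15 against CS (adjusted p = 1.05e-20). Antisense genes overlap *Slco2b1*, of which Gm15635 had 457 UMIs in L hepatocyte nuclei against 12551 for *Slco2b1*, and the sources used here do not state whether counting used strand.

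*Slc22a7* encodes the organic anion transporter Oat2, and it was counted at low depth, with 1221 UMIs in all L hepatocyte nuclei, 891 in CS and 133 in PH. The L samples had 5.13, 6.99 and 23.5 CPM, the CS samples 8.02, 13.9 and 39.5, and the PH samples 0.339, 0.762 and 1.98. Each PH sample was lower than each L or CS sample. Its log2 fold change was -3.46 ± 0.37 against L (adjusted p = 1.69e-09) and -4.25 ± 0.38 against CS (adjusted p = 4.43e-11).

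Among the efflux transporters, *Abcc4* rose. It encodes Mrp4, a basolateral pump of cyclic nucleotides, nucleotide analogues and bile acids that is known to rise in cholestasis. The level was 3.59, 5.58 and 12.2 CPM in L, 5.82, 7.88 and 11.9 CPM in CS, and 13, 19.8 and 42.9 CPM in PH. All 8 PH samples lay above all L and CS samples, the only member for which this was so. PH was 3.59 times higher than L on a log2 fold change of 1.84 ± 0.26 (adjusted p = 4.04e-07), and the log2 fold change against CS was 1.57 ± 0.27 (adjusted p = 1.03e-05). Endothelial nuclei held far more *Abcc4* (described later), as did Kupffer and leukocyte nuclei, and the endothelial and leukocyte markers in hepatocyte sums were higher in PH as given above. Droplets with no called nucleus also held more *Abcc4* (24.1 to 33.2 unscaled CPM over the 6 pools) than any L or CS hepatocyte sum (highest 11 and 10.9), and lay within the PH range (16.4 to 58.2). The part of either in the rise was not tested.

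*Abcb1a* encodes Mdr1a, a P-glycoprotein with a close paralog, *Abcb1b*, with which reads could be shared in counting. The L samples had 3.09, 4.27 and 10.6 CPM, the CS samples 2.07, 4.72 and 8.72, and the PH samples 5.45, 9.15 and 11.9. The sample types overlapped, and PH was above L in 6 of 8 mice. The log2 fold change was 0.77 ± 0.24 against L (adjusted p = 0.00807) and 0.73 ± 0.26 against CS (adjusted p = 0.0174). Both calls were lost with the pool as a covariate, at 0.28 ± 0.38 (adjusted p = 0.565) and 0.60 ± 0.28 (adjusted p = 0.0749), and within the 2 pools that held both L and PH the log2 fold change was 0.25 ± 0.54 (adjusted p = 0.737). Leukocyte and biliary nuclei held the most *Abcb1a* among the cell types of L (described later). In hepatocyte sums the leukocyte markers were higher in PH, while the biliary markers had a median of 213 CPM in both L and PH. Droplets with no called nucleus had 3.71 to 12.6 unscaled CPM of *Abcb1a*. The part of these in the rise was not tested. The call against CS was also lost without mouse 3 (0.60), mouse 5 (0.59), mouse 6 (0.68) or mouse 7 (0.62).

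*Abcc3* encodes Mrp3, the basolateral pump of glucuronide conjugates. Its level was 74.6, 218 and 261 CPM in L, 74.9, 182 and 347 CPM in CS, and 171, 202 and 256 CPM in PH. The PH samples lay inside the range of the others, and PH was above L in 4 of 8 mice. The log2 fold change was 0.13 ± 0.25 against L, with a 95% interval of -0.36 to 0.63 (adjusted p = 0.696), and 0.18 ± 0.25 against CS, with an interval of -0.31 to 0.68 (adjusted p = 0.587). *Abcc3* was called higher in PH when samples were not scaled to each other, at 0.68 against L and 0.89 against CS, a setting that moved the median of all genes to 0.66 and 0.71. The pool covariate turned its sign against L (-0.07 ± 0.41, adjusted p = 0.897).

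*Abcg2* encodes BCRP, a pump of sulfate conjugates, urate and many drugs. It had 57.8, 84.9 and 100 CPM in L, 50.5, 85.3 and 93.8 CPM in CS, and 23.3, 30.3 and 35.7 CPM in PH. The PH samples lay below all others. The log2 fold change was -1.47 ± 0.13 against L (2.78 times lower, adjusted p = 3.07e-11) and -1.39 ± 0.13 against CS (adjusted p = 1.37e-10). It was the smallest fall among the 6 genes that fell in PH.

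In all, 6 members were lower in every PH sample than in any L sample and 1 was higher in every one, where 16.2% and 14.1% of all genes behaved so. Against CS the counts were again 6 and 1, beside 12.2% and 14.4% of all genes. Within the 2 pools that held both L and PH, with 2 L and 3 PH samples, the 6 falls were called at log2 fold changes from -5.81 (*Slco1b2*) to -1.61 (*Abcg2*), and the rise of *Abcc4* at 1.57 ± 0.50 (adjusted p = 0.0279). With the pool as a covariate, *Slco1b2* was at -6.22, *Slco1a4* at -4.75, *Slco2b1* at -4.32, *Slco1a1* at -3.42, *Slc22a7* at -2.93, *Abcg2* at -1.58 and *Abcc4* at 1.77, all called. Leaving out a mixed group of 2321 low-UMI nuclei that were counted as hepatocytes changed no call among the 3 comparisons of hepatocyte nuclei.

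**Figure D1:**
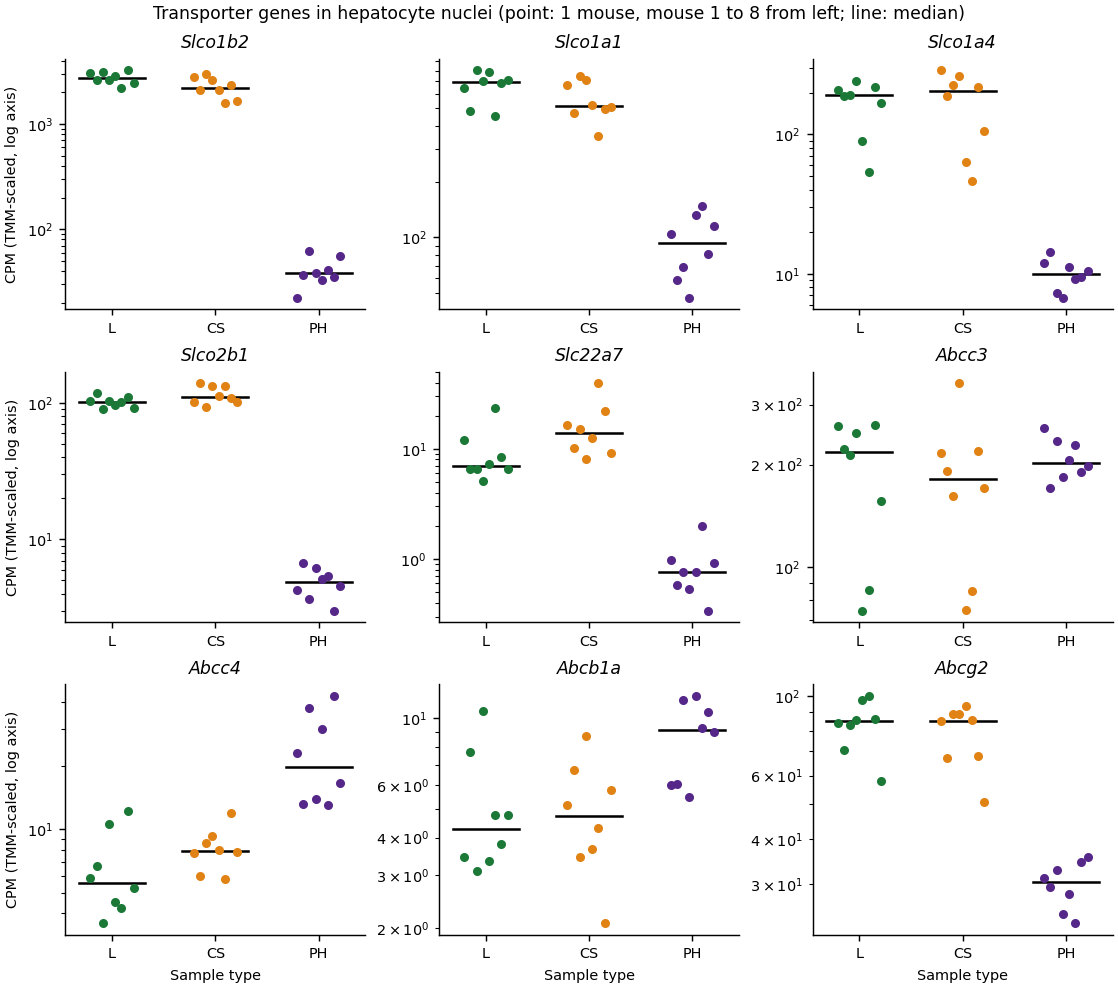
Level of the 9 genes in hepatocyte nuclei of each mouse, as TMM-scaled CPM on a log axis, by sample type (L, CS and PH), with 1 point per mouse and a line at the median. The PH points of the 5 uptake carriers and Abcg2 lie below all L and CS points, those of Abcc4 lie above, and those of Abcc3 and Abcb1a overlap with L and CS.

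**Figure D2:**
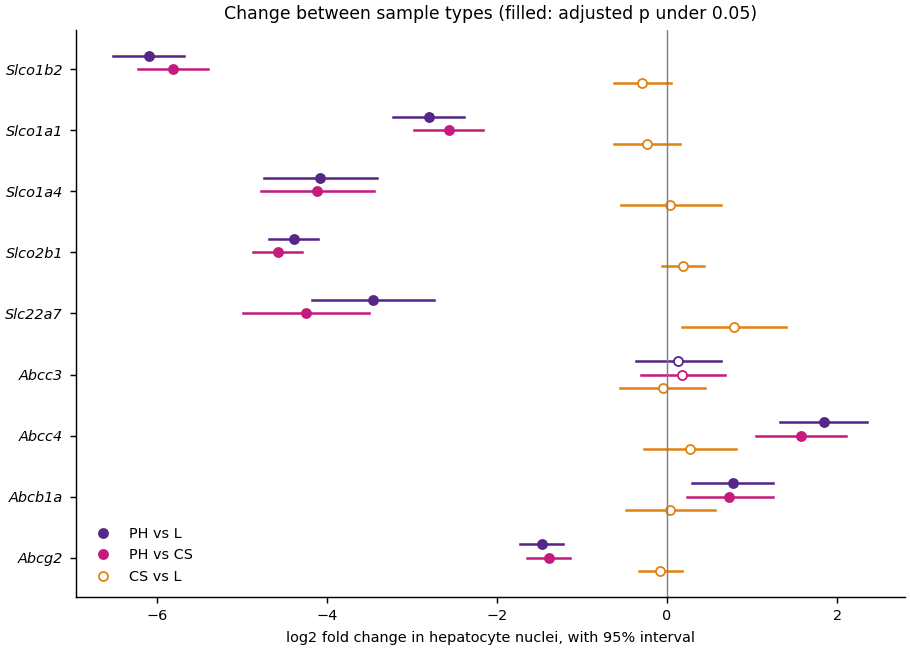
Log2 fold change of each gene in hepatocyte nuclei for PH vs L, PH vs CS and CS vs L with 95% intervals, where filled points passed an adjusted p of 0.05. In PH vs L and PH vs CS, 8 of 9 points are filled, and in CS vs L none is.

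To separate isolation from culture, CS was compared with L. None of the 9 genes was called (edgeR, beside 22.3% of all genes, 8.15% higher and 14.2% lower), and 1 had an unadjusted p under 0.05. Without scaling 19.9% of the calls over all genes were higher and by size factors (RLE) 47.8%, instead of 36.5%. The gene with the unadjusted p was *Slc22a7*, with a log2 fold change of 0.79 ± 0.31 (adjusted p = 0.0716). It was higher in CS than in L in 8 of 8 mice. The samples of 1 mouse are paired, and with the mouse as a block the estimate was 0.79 ± 0.15 (adjusted p = 1.58e-04). *Slc22a7* was also called by DESeq2 (0.89, adjusted p = 0.0345) and by edgeR without mouse 6 (0.79, adjusted p = 0.00768). The intervals for the other members were wide enough to hold modest changes, for example -0.62 to 0.05 for *Slco1b2*, -0.54 to 0.63 for *Slco1a4* and -0.55 to 0.45 for *Abcc3*. No member had all CS samples above or below all L samples, as 1.26% and 4.38% of all genes did.

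Most UMIs of 8 of the 9 genes came from unspliced transcripts in each sample type, and *Slc22a7* had more spliced than unspliced UMIs in CS (466 and 362) and PH (102 and 26) but not in L (532 and 622). In the whole data set 69.4% of UMIs were unspliced, 21.9% spliced and 8.66% ambiguous. Over all genes the spliced share of spliced and unspliced UMIs in hepatocyte nuclei had a median over samples of 20% in L, 26.8% in CS and 29.2% in PH. The share for *Slco1b2* was 13.9% in L, 17.6% in CS and 35.6% in PH. The *Slco1b2* UMIs counted in PH were thus more often spliced. Droplets with no called nucleus held more *Slco1b2* than any PH sum (described later). The part of such free RNA in the PH share was not tested. The share of *Slco2b1* rose too (18.6%, 21.8% and 27.4%), and *Slc22a7*, the shortest of the 9 genes, had the highest shares (49%, 60.8% and 76.5%). From L to PH the share also rose for *Abcb1a* (10.5% to 21.3%), *Abcc3* (10.9% to 17.2%) and *Abcg2* (13.3% to 18.8%). *Abcc4* (2.11% to 4.85%) and *Slco1a4* (13.2% to 15.1%) rose as well at the median, with overlap between L and PH samples. For *Slco1a1* the share went the other way, from 19.3% in L to 12.5% in PH. Fits on each kind of UMI alone followed this for *Slco1b2*, at log2 fold changes in PH against L of -6.40 (unspliced) and -5.02 (spliced). They also did for *Slco1a1* (-2.58 and -3.58), while the log2 fold changes of *Slco1a4* were alike (-4.01 and -4.06). For *Slc22a7* they were -4.69 (unspliced) and -2.87 (spliced), and for *Abcb1a* 0.64 (adjusted p = 0.0234) and 1.77 (adjusted p = 4.66e-05). *Abcc3* was called higher in PH than in L on spliced UMIs (0.53 ± 0.19, adjusted p = 0.0172) and not on unspliced UMIs (0.13 ± 0.27, adjusted p = 0.700). The differences between the kinds of UMI were not tested.

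The share of hepatocyte nuclei with at least 1 UMI was also counted. After each nucleus was thinned to 1000 UMIs, *Slco1b2* was found in a median of 72.9% of L nuclei, 66.7% of CS nuclei and 3.78% of PH nuclei. Without thinning the shares were 93.4%, 84.2% and 17%, at median depths of 6860.5, 3025 and 5915.5 UMIs per hepatocyte nucleus. Endothelial nuclei, in which this carrier is not known, had a thinned share of 21% in L and 8.44% in PH, at median depths of 2861.5 and 1499 UMIs, and the PH hepatocyte share (2.9% to 10.4% over mice) overlapped with the endothelial one (4.69% to 25.1%), so no expression is read from it. *Slco1a1* was found in 41.1%, 30.6% and 9.99% of thinned hepatocyte nuclei (81.2%, 59.7% and 35.9% unthinned), with 5.18%, 4.53% and 5.79% in endothelial nuclei. *Slco1a4* was found in 14.1%, 12.2% and 1.21% (44.9%, 31.5% and 5.78% unthinned), with 1.45%, 2.19% and 0.579% in endothelial nuclei. *Abcc3* stood at 17.9%, 15.7% and 22.4% of thinned hepatocyte nuclei (59.1%, 39.7% and 64.4% unthinned), with 2.78%, 3.4% and 7.6% in endothelial nuclei. Fewer than 3% of thinned hepatocyte nuclei held a UMI of *Slc22a7*, *Abcc4* or *Abcb1a* at the median in any sample type. Droplets that held no nucleus called by the authors (under 200 UMIs) had *Slco1b2* at 576 to 1925 CPM over the 6 pools, *Slco1a1* at 237 to 468, *Slco1a4* at 58.4 to 144 and *Slco2b1* at 29.4 to 109, all above every PH hepatocyte sum on the same unscaled CPM (highest 82.3, 185, 20.1 and 9.68). *Abcg2* (39 to 94.5) and *Slc22a7* (0 to 11.8) overlapped with the PH sums (29.4 to 46.8 and 0.46 to 2.49), and *Abcc3* (116 to 228) lay below them (240 to 332). These droplets mix the samples of a pool, and the part of free RNA in the PH values was not tested.

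In Liver, the 9 genes were compared between hepatocyte nuclei and the endothelial, Kupffer and stellate nuclei of the same mice. All 9 differed from endothelial nuclei, 6 higher and 3 lower in hepatocytes, beside 47.7% of 24407 genes (19.4% higher and 28.4% lower). Against Kupffer nuclei 7 were called, 5 higher and 2 lower, beside 40.8% of genes (16.2% and 24.7%), and against stellate nuclei 8, 5 higher and 3 lower, beside 39.0% (16% and 23.0%). The sums of the 10 hepatocyte markers in endothelial, Kupffer and stellate nuclei had medians of 3066, 3934 and 3392 CPM against 14600 in hepatocytes, so hepatocyte RNA was counted in all of them. Its part in their carrier levels was not tested. With scaling factors from all genes, 51.9%, 54.1% and 58.2% of the calls over all genes were higher in hepatocytes instead of 40.6%, 39.6% and 40.9%. *Slco1b2* had a median of 2512 CPM (not scaled between sums) in hepatocyte nuclei, 297 in endothelial, 488 in Kupffer and 508 in stellate nuclei, and was higher in hepatocytes than in these by 3.20, 2.61 and 2.25 on the log2 scale. *Slco1a1* (2.84, 2.70 and 2.54) and *Slco1a4* (2.41, 3.0 and 3.02) were also higher in hepatocytes than in each of these.

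*Slco2b1* did not follow the other carriers. Its median was 94.6 CPM in hepatocyte nuclei, 24.1 in endothelial, 11.8 in Kupffer and 160 in stellate nuclei. Stellate cells are the vitamin A-storing pericytes of the liver, and their *Slco2b1* level was above that of hepatocytes, with a log2 difference (hepatocyte minus stellate) of -0.70 ± 0.17 (edgeR, adjusted p = 6.41e-04). With scaling factors taken from all genes this difference was -0.33 and not called (adjusted p = 0.121). *Slco2b1* was also listed at 189 CPM in CS stellate nuclei and 77.5 CPM in PH stellate nuclei at the median, the latter on 39 UMIs in all.

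*Abcc4* was mainly a gene of other cells. It stood at 5.18 CPM in L hepatocyte nuclei, 266 in endothelial, 200 in Kupffer, 116 in leukocyte, 53.8 in biliary and 15.8 in stellate nuclei. Every endothelial and Kupffer sum lay above every hepatocyte sum, and the log2 difference (hepatocyte minus other) was -5.47 ± 0.17 for endothelial (adjusted p = 6.30e-36), -5.04 ± 0.18 for Kupffer (adjusted p = 7.08e-33) and -1.79 ± 0.27 for stellate nuclei (adjusted p = 9.64e-08).

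The other efflux pumps had patterns of their own. *Abcc3* was highest in Kupffer nuclei, the resident macrophages, with a median of 405 CPM against 200 in hepatocytes (log2 difference -1.24 ± 0.20, adjusted p = 3.60e-07), 31.4 in endothelial and 21.4 in stellate nuclei. *Abcg2* stood at 77.7 CPM in hepatocytes, 175 in endothelial and 117 in stellate nuclei, and hepatocytes were lower by 1.07 and 0.66 on the log2 scale. The second of these was not called with scaling factors from all genes (-0.29, adjusted p = 0.130). *Abcb1a* was listed at 3.85 CPM in hepatocytes and 9.49 in endothelial nuclei (log2 difference -1.14 ± 0.28, adjusted p = 4.73e-04), and at medians of 74.6 CPM in leukocytes and 62.9 in biliary nuclei (365 and 220 nuclei in L, with 82 and 49 *Abcb1a* UMIs), which were not part of the fit. *Slc22a7* was higher in hepatocytes than in endothelial nuclei (2.39 on the log2 scale), on 12 UMIs there. It was also called against Kupffer (1.21, adjusted p = 0.041) and stellate nuclei (1.44, adjusted p = 0.00917), on 9 and 10 UMIs. The Kupffer call was lost without scaling (1.13, adjusted p = 0.061) and without mouse 4 (1.17), mouse 5 (1.08) or mouse 6 (1.12), and the stellate call without the mouse as a block (1.47, adjusted p = 0.0514).

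**Figure D3:**
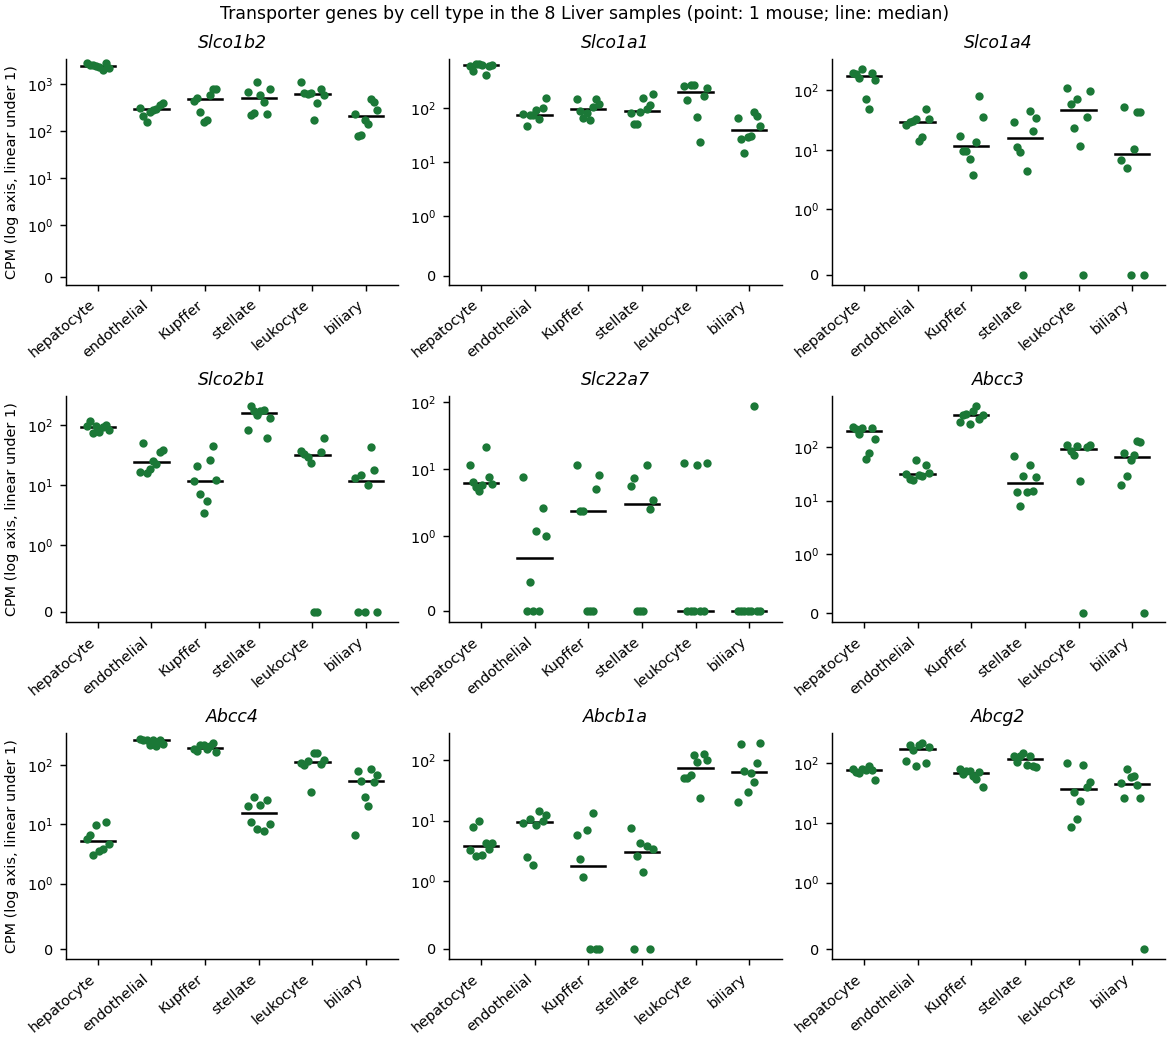
Level of the 9 genes by cell type in the 8 Liver samples, as unscaled CPM of summed nuclei on a log axis that is linear under 1, with 1 point per mouse and a line at the median. Slco1b2, Slco1a1 and Slco1a4 are highest in hepatocyte nuclei, Slco2b1 in stellate nuclei, Abcc3 in Kupffer nuclei, Abcc4 and Abcg2 in endothelial nuclei, and Abcb1a in leukocyte and biliary nuclei.

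Endothelial nuclei were present in all 3 sample types (2474 in L, 1152 in CS and 1809 in PH), so the same comparison was made in them. Of those in PH, 1733 lay in the cultured endothelial cluster, which held 2 L and 26 CS nuclei. In PH against L, *Abcc3* rose by 1.43 ± 0.21 on the log2 scale (edgeR, adjusted p = 3.36e-07), with L samples at 26.7, 32.1 and 57.3 TMM-scaled CPM and PH samples at 57.8, 95.2 and 143, which do not overlap. The unscaled PH sums (55.4 to 168 CPM) overlapped with droplets with no called nucleus (116 to 228 CPM over the 6 pools), all of which lay above every L sum (24.8 to 57.8 CPM), and the part of free RNA in this rise was not tested. *Abcc4* fell by 1.03 (SE 0.19, adjusted p = 2.09e-05), from 218, 274 and 293 CPM to 67.4, 118 and 214, and here too the sample types do not overlap. *Abcg2* fell by 1.00 (SE 0.22), from a median of 187 to 77.3 CPM. *Slco2b1*, *Slco1a4* and *Slco1b2* fell by 2.76, 1.44 and 1.25, on 14, 38 and 428 UMIs in all PH endothelial nuclei. In all, 6 of 9 members were called (1 higher and 5 lower) beside 33.8% of all 18279 genes (15.4% higher and 18.4% lower). By RLE size factors 57% instead of 45.6% of the calls over all genes were higher. Of the members, 1 was higher in every PH than in any L sample and 2 were lower, as were 2.81% and 5.84% of all genes.

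Against CS, 6 members were called in endothelial nuclei (2 higher and 4 lower) beside 20% of all genes (9.33% higher and 10.7% lower). *Abcg2*, called lower against L, was not called against CS (edgeR, -0.39 ± 0.24, adjusted p = 0.294). It stood at -0.61 ± 0.22 in CS against L, also not called (adjusted p = 0.121). With the mouse as a block in edgeR, *Slco1a1* was called as well, at -0.68 (adjusted p = 0.0324) instead of -0.62 (adjusted p = 0.134). *Abcb1a* was among the 6, at 3.18 ± 0.64 (adjusted p = 1.73e-04). *Abcb1a* rested on 80 UMIs in L, 4 in CS and 63 in PH, and it was also the 1 member called in CS against L (-2.30 ± 0.66, adjusted p = 0.0368, beside 3.90% of all genes, 2.03% higher and 1.87% lower). That call was lost without any 1 of mice 1, 3, 5, 6 and 8, with estimates from -2.45 to -2.09. No member had all PH samples above all CS samples and 1 had all below, beside 1.33% and 1.88% of all genes. In CS against L no member was separated, beside 0.241% and 0.525%.

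Hepatocyte markers were also counted in endothelial nuclei, at a median summed level of 3066 CPM in L, 4495 in CS and 3053 in PH, while their level in hepatocyte nuclei was 14600, 19392 and 3952 CPM. As a share of the hepatocyte level of the same sample, this was 21% in L, 25.3% in CS and 66.2% in PH at the median. For *Slco1b2* the endothelial level was 11.6% of the hepatocyte level in L, 14.9% in CS and 174% in PH, and in PH it was the higher of the 2 in 7 of 8 samples. For *Abcc4* it was 4896%, 2719% and 437%. The part of hepatocyte RNA in the endothelial falls of the *Slco* genes was not tested.

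The difference between the endothelial and the hepatocyte change (PH vs L) was tested in 1 fit over both sums of each sample. It was called for 6 of 9 members, 5 higher and 1 lower, beside 25.6% of 27025 genes (10.1% higher and 15.4% lower). *Slco1b2* (4.45 ± 0.30, adjusted p = 9.79e-23), *Slco1a4* (2.40 ± 0.42), *Slco1a1* (1.92 ± 0.26), *Slco2b1* (1.36 ± 0.53, adjusted p = 0.0493) and *Abcc3* (0.93 ± 0.24) had a higher log2 change in endothelial than in hepatocyte nuclei. *Abcc4* had a lower one (-3.13 ± 0.26, adjusted p = 8.65e-18), since it fell in endothelial and rose in hepatocyte nuclei. The median of all genes was -0.18. *Slco2b1* rested on 14 UMIs in PH endothelial nuclei, and without scaling between samples it was at 1.17 and not called (adjusted p = 0.102). For *Abcg2*, which fell against L in both, the difference was 0.25 with an interval of -0.21 to 0.70.

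**Figure D4:**
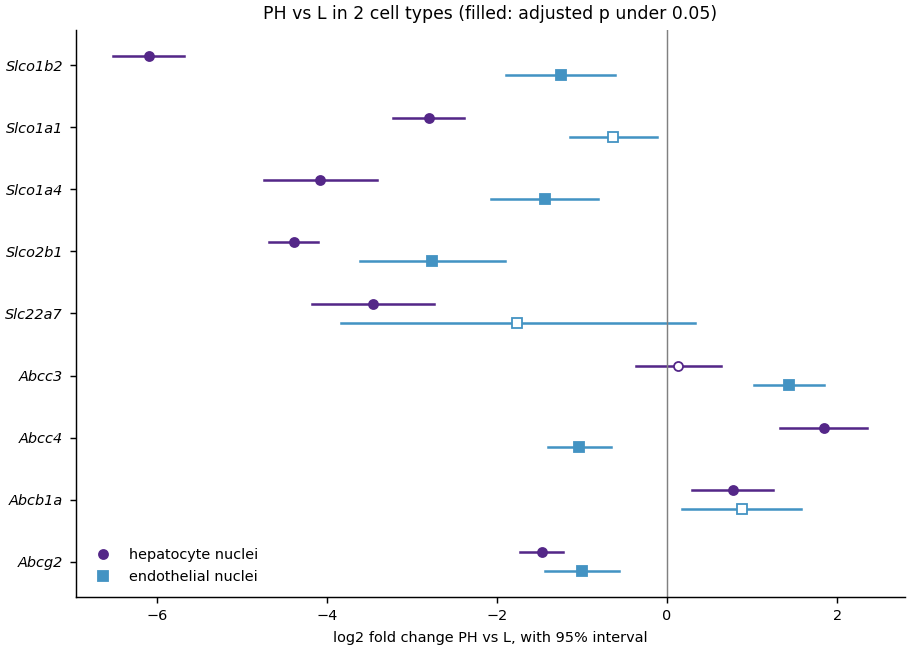
Log2 fold change PH vs L of each gene in hepatocyte nuclei (circles) and endothelial nuclei (squares), with 95% intervals, where filled symbols passed an adjusted p of 0.05. Abcc4 lies at 1.84 in hepatocyte and -1.03 in endothelial nuclei, and Slco1b2 at -6.09 and -1.25.

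Hepatocytes differ along the path from the portal vein to the central vein. To place the transporters on it, hepatocyte nuclei of at least 1000 UMIs were ranked within each mouse by a score from 10 pericentral and 10 periportal genes, none of them a member, and the ranking was cut into pericentral, middle and periportal groups of equal size, which were summed. In Liver, 6 of 9 members differed between the pericentral and periportal groups (19.9% of 22209 genes called, 10.2% higher and 9.65% lower pericentrally). *Slco1b2* had the steepest gradient, with 745, 937 and 1298 CPM (lowest, median and highest mouse) in the periportal group and 3316, 4227 and 4890 in the pericentral group, and no overlap between them. Its log2 difference was 2.16 ± 0.06 (edgeR with the mouse as a block, adjusted p = 3.00e-22). The periportal values lay within the range of droplets with no called nucleus (576 to 1925 CPM), and the part of free RNA in them was not tested.

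*Abcc4* (1.77 ± 0.23), *Abcc3* (1.17 ± 0.07), *Abcg2* (0.77 ± 0.06) and *Slco1a1* (0.45 ± 0.07) were also higher pericentrally, each in 8 of 8 mice. *Abcc4* went from a median of 3 to 7.39 CPM and *Abcc3* from 113 to 281 CPM. The periportal and pericentral groups held 126 and 545 *Abcc4* UMIs in L, and 97 and 224 in CS. These *Abcc4* medians lay below the droplets with no called nucleus (24.1 to 33.2 CPM). The part of free RNA and of other cell types in the *Abcc4* gradient was not tested. *Slc22a7* had the reverse pattern, from 9.39 CPM periportally to 2.79 pericentrally at the median (log2 difference -1.92 ± 0.15, adjusted p = 1.15e-11), and was lower pericentrally in 8 of 8 mice. *Slco1a4* (-0.09, interval -0.25 to 0.08), *Slco2b1* (-0.07, interval -0.17 to 0.03) and *Abcb1a* (-0.30, interval -0.67 to 0.06) were not called. *Slc22a7* was thus the only member called higher in the periportal group in L, while *Slco2b1* was lower pericentrally in 6 of 8 mice.

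In CS the same 6 members were called in the same directions (14.7% of 19858 genes called, 7.82% higher and 6.91% lower), with *Slco1b2* at 2.13 ± 0.10, *Abcc4* at 1.25 ± 0.20, *Abcc3* at 1.08 ± 0.10, *Abcg2* at 0.59 ± 0.10, *Slco1a1* at 0.36 ± 0.09 and *Slc22a7* at -1.79 ± 0.17. *Slco2b1* was lower pericentrally in 8 of 8 CS mice at -0.24 ± 0.10 and did not pass (adjusted p = 0.0885), though it did without mouse 3 (-0.28, adjusted p = 0.0267). Without the mouse as a block the *Slco1a1* gradient was not called in L (0.42, adjusted p = 0.144) or CS (0.37, adjusted p = 0.342). PH nuclei were not divided, since many of them shared the score at a boundary between groups, from 1010 of 1800 scored nuclei in mouse 3 to 1626 of 2063 in mouse 5.

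**Figure D5:**
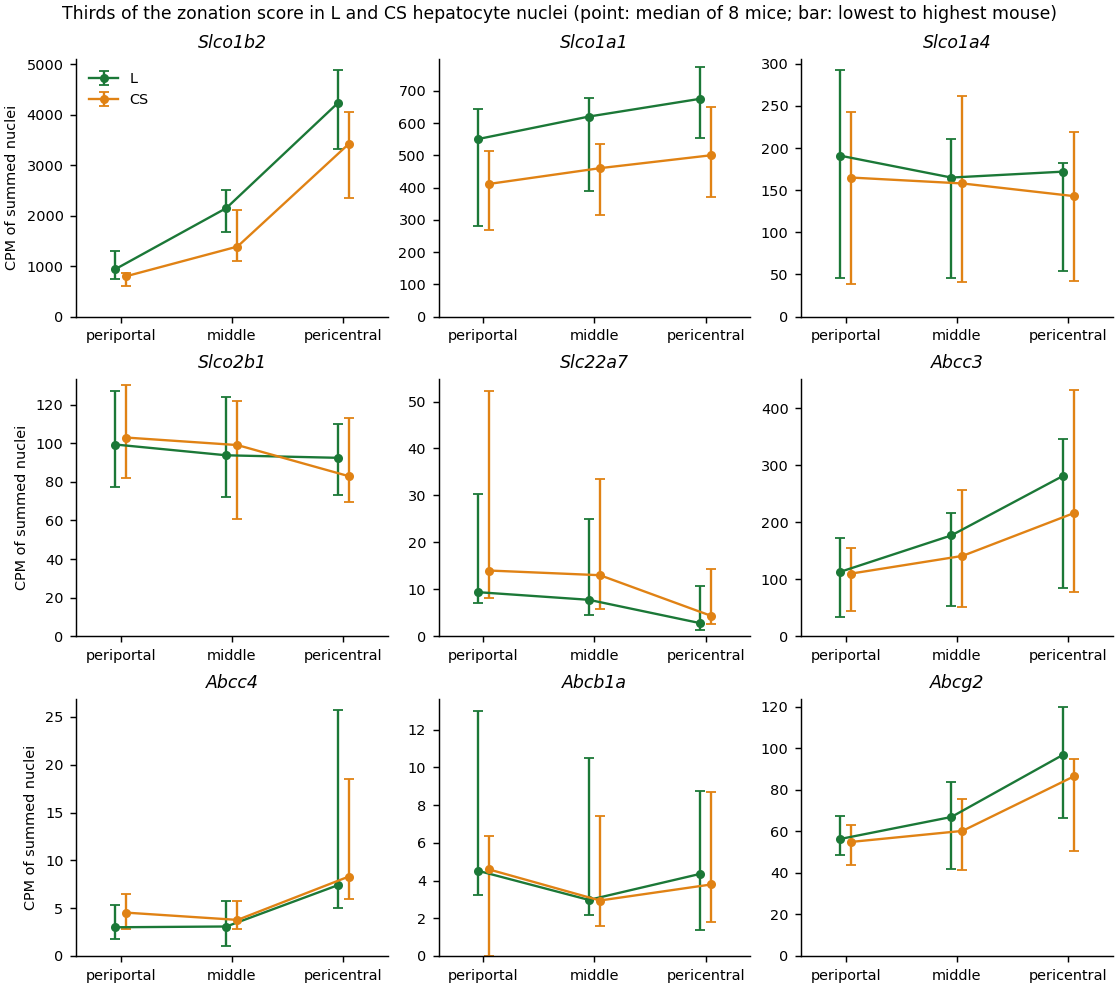
Level of the 9 genes, in CPM of summed hepatocyte nuclei, in the periportal, middle and pericentral groups of the zonation score in L and CS, with points at the median of 8 mice and bars from the lowest to the highest mouse. Slco1b2 goes from 937 to 4227 CPM and Slc22a7 from 9.39 to 2.79 CPM from the periportal to the pericentral group in L.

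The cultured hepatocyte nuclei fell into 4 clusters of the authors' table beside the mixed low-UMI one, and values by cluster are a description with no test, since the clusters were made from the same nuclei. *Abcg2* had a median of 61.7 CPM (lowest mouse 53.4) in the cluster with 5961 PH nuclei, and 20.6, 23.6 and 22.8 CPM in the clusters with 5846, 1682 and 1271 PH nuclei. The fall of *Abcg2* in PH was thus uneven between clusters. *Abcc4* stood at 98.1 CPM and *Abcb1a* at 35 CPM in the smallest of the 4, against 17.8 to 52.5 and 8.38 to 9.88 CPM in the other 3. *Slco1b2* was between 25 and 35.5 CPM at the median in all 4 clusters. From the largest cluster to the smallest, they held 1524, 1465, 462 and 320 of 5895 *Slco1b2* UMIs in PH hepatocyte nuclei. The rest lay in the low-UMI cluster or in PH nuclei that the authors' table did not name as cultured. The paper proposes uneven dedifferentiation or hashtag assignment errors for PH nuclei of this last kind. They were part of the PH sums, and a fit without them was among the other settings.

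Mice differed from each other in some transporters, and the same mice stood out in L and CS. These values were picked after they were seen. The L and CS samples of mouse 6 were both in pool 6, and those of mouse 7 both in pool 1. For these mice, a likeness of L and CS cannot be told apart from a shared pool. The L and CS samples of mouse 5 were in pools 5 and 2. *Slco1a4* was lowest in mouse 6 (53.7 CPM in L and 46.1 in CS) and next in mouse 5 (90.1 and 63.6), while the next mouse was at 168 and 106. *Abcc3* was lowest in mouse 5 (74.6 and 74.9 CPM) and mouse 6 (86 and 85), with the next mouse at 157 and 162. In PH, mice 5 and 6 had 11.2 and 9.2 CPM of *Slco1a4* and 206 and 229 CPM of *Abcc3*, inside the range of the other mice. *Cyp3a11*, a main target of PXR, was also lowest in mice 6 and 5 in L (69.4 and 86 CPM) and CS (61.4 and 155). Other reference targets differed: *Cyp2c55* was lowest in mice 2 and 8 in L (3.21 and 4.55 CPM) and CS (2.49 and 2.99), and *Cyp2b10* was lowest in mouse 6 in L (0.426 CPM) and in mouse 3 in CS (0.157 CPM). *Slc22a7* was highest in mouse 6 in all 3 sample types, and *Abcc4* was highest in mouse 7 in all 3 (12.2, 11.9 and 42.9 CPM).

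The other genes of uptake and efflux were counted from fixed lists. The counts of each list stand beside 27.4% of all genes called higher and 26.3% called lower in PH against L. Of 18 other uptake carriers, 2 rose, 7 fell and 9 were not called in PH against L, with a median log2 fold change of 0.15 (0.10 over all genes), so the 9 called of 18 were near the 53.7% called over all genes. Among the largest called changes were falls of the organic anion carrier *Slc22a30* (median 1054 CPM in L and 16.4 in PH, log2 fold change -5.94 ± 0.28), of the organic cation carrier *Slc22a3* (24.6 and 0.894 CPM, -4.84 ± 0.28) and of the bile acid carrier NTCP, *Slc10a1* (396 and 49.2 CPM, -3.16 ± 0.19). Of 13 other efflux transporters, 3 rose and 8 fell, with a median of -2.41. The cation exporter *Slc47a1* (223 and 7.65 CPM, -4.91 ± 0.21), the sterol pump *Abcg5* (93.9 and 4.57 CPM, -4.37 ± 0.29) and *Abcc6* (525 and 50.4 CPM, -3.46 ± 0.13) fell. *Abcc1*, which encodes Mrp1, a basolateral pump like Mrp4, rose from 1.58 to 34 CPM (4.65 ± 0.27) and was already higher in CS than in L (1.32 ± 0.29, adjusted p = 0.00107).

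Of 13 regulators of drug and bile acid handling, 10 fell in PH against L and 1 rose (median -1.65). The largest changes were falls of the CAR gene *Nr1i3* (63.9 and 0.991 CPM, -6.11 ± 0.30), the SHP gene *Nr0b2* (-5.05 ± 0.30), the FXR gene *Nr1h4* (-3.48 ± 0.15) and *Ppara* (-3.39 ± 0.23). All 7 Nrf2 reference targets rose (median 2.95), led by *Hmox1* (3.75 and 181 CPM, 5.67 ± 0.40), *Srxn1* (4.12 ± 0.24), *Slc7a11* (3.50 ± 0.23) and *Gclc* (2.95 ± 0.31). *Hmox1* was already higher in CS than in L (20.1 CPM, 3.30 ± 0.37, adjusted p = 7.00e-08). Of 8 reference targets of CAR, PXR and AhR, 3 rose and 3 fell: *Cyp2b10* rose from 1.21 to 30.4 CPM (4.75 ± 0.40) and *Tiparp* from 21.1 to 135 CPM (2.68 ± 0.24), while *Cyp1a2* (-4.95 ± 0.44) and *Cyp3a11* (-3.54 ± 0.42) fell. *Tiparp* was already higher in CS than in L (187 CPM, 3.38 ± 0.25, adjusted p = 2.46e-11) and was lower in PH than in CS (-0.69 ± 0.23, adjusted p = 0.0117). Against CS, 1 of these 8 targets rose and 4 fell, beside 26.9% and 23.5% of all genes. *Cyp2b10* was also higher in CS than in L (3.19 CPM, 1.46 ± 0.44, adjusted p = 0.0157). All named changes passed the edgeR test, and a link of any of these genes to the transporters was not tested.

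The genes whose log2(CPM + 1) followed a member most closely over the 24 hepatocyte sums, out of 8616 compared, are given as a description, since these sums share mice, pools and sample types. They were *Otc* (Pearson r = 0.998), *Enpp2* and *Sult2a8* for *Slco1b2*, *Abcc6* (0.996), *Prodh2* and *Uroc1* for *Slco2b1*, *Klf12* (0.990), *Rps6ka5* and *Crp* for *Slco1a1*, and *Cmtm8* (0.988), *Spp2* and *Nadk2* for *Slco1a4*. *Abcg2* went most closely with *A1cf* (0.978), *Fam169b* and *Mgam*. For *Abcc4* the closest was *Plk2* (0.893), followed by *Arhgap22* and its relative *Abcc1* (0.887). *Abcc3* went most closely with *Ephx1* (0.917, and 0.94 on deviations from the mean of each sample type), which encodes microsomal epoxide hydrolase. On these deviations *Otc* also stayed the closest to *Slco1b2* (0.91). The closest gene changed to *Peli1* (0.93) for *Slco1a1*, *Ccdc141* (0.92) for *Slco1a4*, *Spns2* (0.77) for *Slco2b1*, *Zcchc4* (0.88) for *Abcg2* and *C730002L08Rik* (0.76) for *Abcc4*. *Slc22a7* and *Abcb1a* were below the mean of 10 CPM set for this step.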

How the data were processed

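Nuclei of 24 mouse samples (8 L, 8 CS and 8 PH) were measured by snRNAseq in 6 hashtagged pools. Per the study's methods, the authors demultiplexed with bcl2fastq 2.19.0 and pseudo-aligned reads with Salmon alevin to spliced and unspliced transcripts of GRCm38, and they deposited raw UMI counts per barcode and gene. The authors also deposited a table of the nuclei they kept, after doublets were removed, with hashtag and cell type. The cultured clusters were named here from marker genes, 1 as endothelial, 1 as stellate and 5 as hepatocyte, and a hashtag label outside the naming scheme was taken as CS mouse 2 from its group column.

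For each gene the 3 kinds of UMI were pooled, and nuclei of a mouse sample and cell type were summed where there were at least 10. Genes with at least 10 UMIs were tested with edgeR 4.0.16 (R 4.3.3, limma 3.58.1) by quasi-likelihood on TMM-scaled sums, with Benjamini-Hochberg adjustment at 0.05. Fits across cell types took scaling factors from genes with a mean of at least 20 UMIs, chosen after simulated data showed many false calls with factors from all genes, and those are an alternative. Sums were made in Python 3.11.15 (numpy 2.4.6, pandas 2.3.3, scipy 1.17.1) and plots with matplotlib 3.10.9. DESeq2 1.42.0 served as an alternative. On simulated data with 200 changed genes, the hepatocyte fit of PH against L recovered 95% of genes changed by 1 on the log2 scale. Of its calls, 5.34% were false. The changed genes rose or fell at random and had a mean of at least 20 UMIs. In the data 53.7% of all genes were called in this comparison, so these rates need not hold there.

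Hepatocyte sums held 2104087 to 29023569 UMIs, and single members as few as 4 UMIs in a sample (*Abcb1a*). Standard errors were derived from the log2 fold change and the F statistic of each edgeR fit. They hold counting error and information shared between genes as well as the spread between mice. In fits with the mouse or the sample as a block, differences shared by all sums of that block are taken out. L and CS samples of a mouse deviated together (correlation 0.32 to 0.84, median 0.66), while those of L and PH (-0.05 to 0.13) and of CS and PH (-0.17 to 0.13) did not. The mouse numbers come from the hashtag names in the authors' table. The members and gene lists were chosen with earlier results of these data known. The members were all named, and of each other list at most 4 genes with the largest called change in PH against L and at least 10 CPM in a sample type. Promoter sequences are RefSeq windows. Protein sequences were not used here. Some items of these lists are not reported here.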

Additional observations from a re-analysis of the deposited data

Results flagged for a closer look

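Among 54 groups of 8 samples examined for a value standing apart (Dixon's criterion), 7 held one. The criterion flags about 1 in 20 groups of normally distributed values by chance, a rate that need not hold for genes with few UMIs. *Slc22a7* in hepatocyte nuclei stood apart in mouse 6 in all 3 sample types, at 23.5 CPM in L (next mouse 11.9), 39.5 CPM in CS (next 22.2) and 1.98 CPM in PH (next 0.983). In endothelial nuclei *Slc22a7* stood apart at 7.77 CPM in L mouse 1, 21.1 CPM in CS mouse 3 and 7.61 CPM in PH mouse 2, on 12, 7 and 1 UMIs over all endothelial nuclei of each sample type. With 1 UMI in PH, the sample that held it stood apart in any case. *Abcc3* in CS endothelial nuclei stood apart in mouse 4 at 109 CPM (next 50.6).

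For 6 genes the change from L to PH differed between endothelial and hepatocyte nuclei by a test of the difference itself (edgeR interaction term, adjusted p below 0.05). The endothelial minus hepatocyte difference in log2 fold change was 4.45 for *Slco1b2*, 2.40 for *Slco1a4*, 1.92 for *Slco1a1*, 1.36 for *Slco2b1*, 0.93 for *Abcc3* and -3.13 for *Abcc4*. The summed hepatocyte markers in endothelial nuclei had a median of 3066 CPM in L and 3053 in PH, which was 21% and 66.2% of their hepatocyte level, and their part in these differences was not tested.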

How the results depend on the processing

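Over all settings other than leaving out a mouse, 583 tests of single members kept their direction and side of the threshold, 12 lost and 15 gained a call and 23 changed sign. Of the descriptive values with no test (shares of nuclei, spliced shares and droplet levels), 68 moved by more than the spread between samples and 22 did not, most of them shares of nuclei at another depth. In hepatocyte nuclei, 8 members were called in PH against L and in PH against CS, 2 of them higher. That number of higher members fell to 1 against L with the pool covariate and within the 2 pools holding both, and to 1 against CS with unspliced UMIs and with the pool covariate, each time by losing *Abcb1a*. In CS against L, 0 members were called, against 1 with RLE factors, filterByExpr, the mouse block and DESeq2 (*Slc22a7*, higher), 1 without scaling (*Slco1b2*, lower, -0.42) and 2 with the pool covariate (*Slc22a7*, 1.19, and *Slco1a1*, -0.48). In endothelial nuclei the higher members in PH against L became 2 with RLE factors and without scaling, those against CS became 1 with filterByExpr, which does not test *Abcb1a* there, and the 1 member called in CS against L became 0 with RLE factors and filterByExpr. With scaling factors from all genes, 1 instead of 3 members was lower in hepatocyte than stellate nuclei. In that edgeR setting *Abcg2* was called higher in hepatocyte than Kupffer nuclei, at 0.57 (adjusted p = 0.00451) instead of 0.23 (adjusted p = 0.312).

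Signs changed for members near 0. *Abcc3* in PH against L was -0.07 with the pool covariate. In CS against L of hepatocyte nuclei, *Abcc3* was 0.02 (RLE, filterByExpr, DESeq2), 0.38 (spliced) and 0.08 (thinned sums), *Abcg2* 0.00 (RLE, DESeq2), 0.01 (filterByExpr), 0.22 (spliced) and 0.04 (thinned), *Slco1a4* -0.11 (spliced), -0.46 (pool) and -0.12 (no scaling), and *Abcb1a* -0.32 (pool), -0.33 (thinned) and -0.13 (no scaling). In endothelial nuclei *Slco1a1* was 0.11 (RLE) and 0.10 (filterByExpr), and *Slco1a4* 0.03 and 0.02. The causes were not tested.

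With the mouse as a block, pairing the samples of an animal, *Slc22a7* in CS against L was called at 0.79. In endothelial nuclei this block gave calls of *Slco1a1* in PH against L (-0.70) and in PH against CS (-0.68). With it, *Slco1a4* in CS against L turned to -0.02 in hepatocyte and 0.01 in endothelial nuclei. Without the block across Liver cell types, *Slc22a7* against stellate nuclei was not called at 1.47.

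Leaving out each mouse gave 8 to 8 called members in PH against L (2 to 2 higher, 6 to 6 lower), 7 to 8 against CS (1 to 2 higher), and 0 to 1 in CS against L (0 to 1 higher). Endothelial counts were 6 to 7 (1 to 2 higher, 5 to 6 lower), 5 to 7 (3 to 5 lower) and 0 to 1 (0 to 1 lower), those against Kupffer nuclei 6 to 7 (4 to 5 higher) and those of the CS zonation groups 6 to 7 (1 to 2 lower, with *Slco2b1* gained without mouse 3). The *Abcb1a* and *Slc22a7* calls named with their values lost or gained a call without single mice. In endothelial PH against L, *Abcb1a* (0.88, not called) was called without mouse 4 (0.96), 6 (1.08), 7 (0.97) or 8 (1.02). *Slco1a1* there was called without mouse 3 (-0.78). In endothelial PH against CS, *Slc22a7* (-2.77, not called) was called without mouse 1 (-3.03) or 2 (-4.10). The call of *Slco1a4* there was lost without mouse 5 (-1.07) and that of *Abcc4* without mouse 2 (-0.54). The call of *Slc22a7* against Kupffer nuclei was lost without mice 4, 5 or 6 (1.08 to 1.17) and without scaling (1.13). Signs changed in CS against L for *Slco1a4* (-0.05 to 0.12) and *Abcb1a* (-0.03 to 0.12) in hepatocyte nuclei and for *Slco1a1* (-0.24 to 0.15), *Slco1a4* (-0.34 to 0.18) and *Slco1b2* (-0.02 to 0.48) in endothelial nuclei, and between zonation groups for *Slco1a4* in L (-0.16 to 0.01) and CS (-0.25 to 0.02) and *Abcb1a* in CS (-0.31 to 0.03). The planned comparison with zones named by the authors was not run, since the table names none.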
